A study of Homo sapiens with 19 samples.

Results

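The transforming growth factor beta (TGF-beta) pathway was followed in MDA-MB-231 cells through 10 transcripts of 9 genes, out of 175775 transcripts listed in every library. The members were named by Ensembl transcript identifier: ENST00000221930 for TGFB1, ENST00000366930 and ENST00000366929 for TGFB2, ENST00000238682 for TGFB3, ENST00000374994 for TGFBR1, ENST00000295754 for TGFBR2, ENST00000262160 for SMAD2, ENST00000327367 for SMAD3, ENST00000342988 for SMAD4 and ENST00000262158 for SMAD7. All 10 were listed in all 17 libraries, with the TGFBR1 transcript at 0 reads in 6 of them. The list, and not the files, pairs each identifier with its gene. Members were chosen by their place in the pathway with their estimated reads in the 6 groups already known, and no threshold on a value admitted or dropped one. Those reads are also the values tested below, so counts and p-values describe these transcripts and are not independent support for a change of the pathway. Other transcripts of these genes were not analysed here, so a level below is that of 1 transcript and not of the whole gene.

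MDA-MB-231 is an established human line of triple-negative breast cancer with a mesenchymal-like form. Poly(A) RNA was sequenced in 2 experiments, and every group received siRNA at 30 nM. In the siRNA experiment, 2 libraries came from cells with STAT3 siRNA (siSTAT3), 2 from cells with HMGN5 siRNA (siHMGN5) and 4 from cells with control siRNA (Ctrl). In the lentiviral experiment, with 3 libraries a group, cells received STAT3 siRNA and lentiviral HMGN5 (siSTAT3+HMGN5), STAT3 siRNA and the control vector (siSTAT3+Vector), or control siRNA and the control vector (Ctrl+Vector). STAT3 is a transcription factor that cytokine receptors switch on. HMGN5 binds nucleosomes and loosens chromatin. Transcripts of STAT3 and HMGN5 are not named in the files, so the depth of the knockdowns and the level of ectopic HMGN5 were not checked here, nor were markers of the cell line. No label says that replicates were separate cultures; the p-values then measure only how far these libraries spread, which may be technical.

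TGF-beta ligands are secreted in a latent form and, once released, bind the type II receptor TGFBR2, which recruits and phosphorylates the type I receptor TGFBR1. The active receptor phosphorylates SMAD2 and SMAD3, which join SMAD4 and enter the nucleus to act on target genes. SMAD7 is an inhibitor that binds the active receptor, and its own gene is a target of the pathway, which makes a feedback loop. In breast cancer cells of mesenchymal form the pathway is known for its part in migration, invasion and metastasis.

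The 9 genes lie on chromosomes 19 (TGFB1, 41330323 to 41353922), 1 (TGFB2, 218345336 to 218444619), 14 (TGFB3, 75958097 to 75983011), 9 (TGFBR1, 99103647 to 99154192), 3 (TGFBR2, 30606356 to 30694142), 15 (SMAD3, 67065602 to 67195169) and 18, which holds SMAD2 (47808957 to 47930872), SMAD7 (48919853 to 48950965) and SMAD4 (51030213 to 51085042), in RefSeq's GRCh38.p14. RefSeq lists 25 start windows for them, each 300 bases long, with 250 bases before a start and 50 after it. Which start the counted transcripts use was not determined. Windows of TGFB2, TGFBR2 and SMAD3 are printed 5′ to 3′ with motif matches in capitals. SMAD4 and SMAD7, also called below, had no match in any listed window and are not printed. For genes with several windows, one that held a match was taken. SMAD3 also had matches in listed windows 1 (E-box) and 3 (AP-1), which are not printed. Window 1 spans the gene's start at 67065602, while the printed window 4 begins at 67137771, inside the gene.
TGFB2, chr1:218345086-218345385, plus strand, with an E-box: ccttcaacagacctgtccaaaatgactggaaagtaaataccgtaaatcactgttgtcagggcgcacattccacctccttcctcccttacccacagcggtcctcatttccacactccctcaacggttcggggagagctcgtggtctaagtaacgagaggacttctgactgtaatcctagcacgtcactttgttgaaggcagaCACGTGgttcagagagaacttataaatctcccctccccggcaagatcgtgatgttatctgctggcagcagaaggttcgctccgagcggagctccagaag
TGFBR2, listed window 2, chr3:30606351-30606650, plus strand, with an AP-1 motif: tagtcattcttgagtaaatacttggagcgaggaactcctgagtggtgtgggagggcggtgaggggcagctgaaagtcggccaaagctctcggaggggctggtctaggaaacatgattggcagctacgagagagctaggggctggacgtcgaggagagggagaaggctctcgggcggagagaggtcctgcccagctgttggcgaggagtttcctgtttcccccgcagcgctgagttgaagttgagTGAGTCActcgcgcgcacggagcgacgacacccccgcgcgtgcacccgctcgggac
SMAD3, listed window 4, chr15:67137771-67138070, plus strand, with a STAT motif: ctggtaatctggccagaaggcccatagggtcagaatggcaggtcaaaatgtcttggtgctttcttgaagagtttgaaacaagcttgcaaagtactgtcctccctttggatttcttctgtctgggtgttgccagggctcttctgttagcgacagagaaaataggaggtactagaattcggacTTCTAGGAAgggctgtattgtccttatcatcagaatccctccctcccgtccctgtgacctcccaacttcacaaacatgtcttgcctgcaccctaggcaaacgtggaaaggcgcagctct

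Motifs were searched by their letters on both strands, and none of the matches overlapped another. The STAT motif TTCNNNGAA was in 1 of the 25 windows and in 7.66% of all 35116 RefSeq windows. This match was in listed window 4 of SMAD3, inside the gene, 69 bases before that window's listed start. The AP-1 motif TGANTCA was in 2 of the 25, in TGFBR2 (6 bases before the start) and in another window of SMAD3, and in 7.71% of all windows. The E-box CACGTG was in 3 of the 25, in TGFB2 (49 bases before the start), TGFB3 and SMAD3, and in 7.26% of all windows. The palindromic SMAD motif GTCTAGAC was in 0 of the 25 and in 0.202% of all windows. A match describes the letters only, and binding was not measured at these windows here.

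Depth was 19114033 to 19509422 estimated reads per library in the siRNA experiment and 22500086 to 23047081 in the lentiviral one. Ctrl replicates 1 and 2 stood apart from Ctrl replicates 3 and 4. The mean chi-square per transcript was 32.7 to 34 between those pairs, 15.8 and 16.3 inside them, and 14.7 to 18.6 for replicates in the remaining groups. The medians were 6.58 to 6.7 between those pairs and 2.41 to 3.26 for the other replicates. All replicates thus differed by more than counting noise. Reads that fit several transcripts are divided by a model, which the chi-square does not account for. It cannot show whether the libraries were separate cultures. Each library was treated as 1 sample. Results against Ctrl are given with all 4 libraries and against each pair. Levels below are in CPM (a transcript's reads relative to its library's total), scaled by TMM within each experiment, and 3 reads correspond to 0.131 to 0.16 CPM. That floor covers counting error only.

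The members fell into 4 abundant and 6 scarce transcripts. Per kilobase of effective length, SMAD3, TGFB1, TGFB2 ENST00000366930 and TGFBR2 averaged 16.9 to 91.5 CPM per kb over the 6 groups, while the other 6 stayed between 0 and 3.47 CPM per kb. In Ctrl+Vector cells the order was SMAD3 at 91.5 ± 2.15 CPM per kb, TGFB1 at 83.3 ± 8.79, TGFB2 ENST00000366930 at 49.5 ± 0.55 and TGFBR2 at 38.5 ± 3.76 (SD, n = 3). TGFB1 replicates overlapped those of SMAD3 in that group and could not be ranked against them. SMAD4 and SMAD7 followed at 2.66 and 1.77 CPM per kb. SMAD2 (0.47), TGFB2 ENST00000366929 (0.464), TGFBR1 (0.211) and TGFB3 (0.196) came last. In siSTAT3+HMGN5, siSTAT3+Vector and siHMGN5 cells the TGFB1 mean stood above that of SMAD3. Replicates overlapped in siSTAT3+HMGN5 and siSTAT3+Vector, so the order of these transcripts was not set there, and they did not overlap in siHMGN5. The low SMAD2 and TGFBR1 levels are those of the listed transcripts, of which the one of SMAD2 is 34526 bases long.

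**Figure D1:**
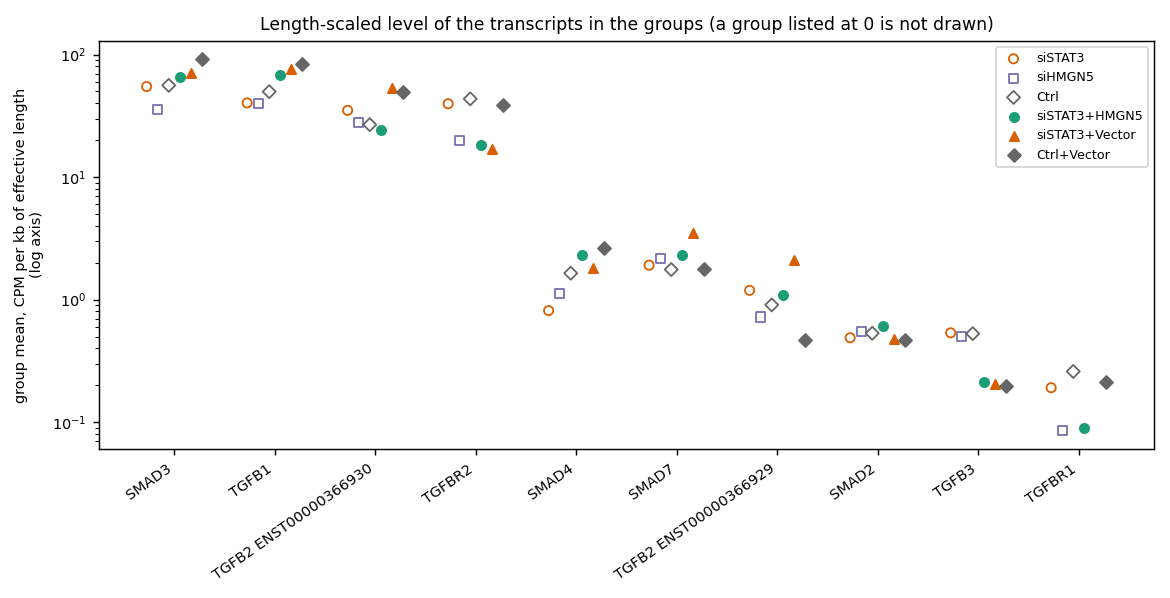
Mean level of each transcript in each group, in CPM per kilobase of effective length on a log axis, with open symbols for the siRNA experiment and filled ones for the lentiviral experiment. SMAD3, TGFB1, TGFB2 ENST00000366930 and TGFBR2 lie between 16.9 and 91.5 CPM per kb in every group, and the other 6 transcripts at 3.47 or less.

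STAT3 siRNA in cells with the control vector moved 5 of the 10 transcripts (quasi-likelihood test of edgeR, p adjusted by Benjamini-Hochberg over 69768 transcripts, threshold 0.05). TGFBR2, SMAD3 and SMAD4 fell, while SMAD7 and the minor TGFB2 transcript rose. Of all transcripts 14.3% passed the same test, 7.2% higher and 7.07% lower. Among transcripts averaging 10 CPM or more, 38.5% passed, against 3 of the 6 members in that class. The members' median log2 fold change was -0.03, and that of all transcripts was 0.02. In bulk RNA, fewer cells of a kind and less RNA per cell cannot be told apart.

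Among the ligands, the main transcripts did not pass the test. TGFB1 had 202, 202 and 182 CPM in siSTAT3+Vector, against 219, 176 and 215 CPM in Ctrl+Vector. TGFB2 ENST00000366930 had 257, 231 and 245 CPM in siSTAT3+Vector, against 229, 232 and 232 CPM in Ctrl+Vector. The groups overlapped in each, with log2 fold changes of -0.06 ± 0.09 (SE, adjusted p = 0.785) and 0.08 ± 0.04 (adjusted p = 0.317, edgeR). TGFB3 lay at 0.369 to 0.557 CPM in siSTAT3+Vector and 0.35 to 0.53 CPM in Ctrl+Vector, which is 8 to 12.6 estimated reads a library.

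The minor TGFB2 transcript ENST00000366929 had 6.58, 10.6 and 12 CPM in siSTAT3+Vector, against 2.17, 0.704 and 3.73 CPM in Ctrl+Vector. It was 4.43-fold higher without overlap between the groups (log2 fold change 2.15 ± 0.54, adjusted p = 0.0365, edgeR). It took 2.49% to 4.66% of the reads of both TGFB2 transcripts in siSTAT3+Vector and 0.302% to 1.58% in Ctrl+Vector. Its call is close to the threshold: it held in 5 of 12 alternatives, with adjusted p of 0.000323 to 0.109. Leaving out Ctrl+Vector replicate 1 (adjusted p = 0.109) or siSTAT3+Vector replicate 1, 2 or 3 (0.0548, 0.102 and 0.108) ended it. Reads that fit both TGFB2 transcripts are divided by a model, and summed over both, TGFB2 had a log2 fold change of 0.12 ± 0.04 (adjusted p = 0.0962, edgeR).

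The type II receptor showed the largest fall of the abundant members. TGFBR2 had 64, 81.1 and 71.8 CPM in siSTAT3+Vector, against 179, 161 and 150 CPM in Ctrl+Vector. Every siSTAT3+Vector library was thus below every Ctrl+Vector library. The difference was 2.26-fold (log2 fold change -1.18 ± 0.10, adjusted p = 0.000263, edgeR). The TGFBR1 transcript was listed at 0 in all 3 siSTAT3+Vector libraries, against 0.307, 1.32 and 2.28 CPM in Ctrl+Vector. The Ctrl+Vector mean of 1.3 ± 0.987 CPM (SD, n = 3) was 9.85 times a floor of 3 reads per library, and 6.16 times without Ctrl+Vector replicate 3. These are not lower bounds of the fall, since listed zeros also stood beside higher replicates. The transcript had 43.6 and 0 reads in siSTAT3 and 29.8, 0 and 6.8 reads in siSTAT3+HMGN5. The TGFBR1 difference did not pass the test (adjusted p = 0.0853 with edgeR, 0.00244 with DESeq2, and 0.00244 to 0.203 over 12 alternatives). A fit of only these groups dropped the transcript as too low. The transcript was at 0 in 6 of the 17 libraries of the series, and how its reads were divided with other transcripts was not tested.

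SMAD3 and SMAD4 fell and SMAD7 rose. SMAD3, which carries the receptor's signal, had 429, 416 and 416 CPM in siSTAT3+Vector, against 528, 549 and 534 CPM in Ctrl+Vector. Its libraries were tight enough to call a 1.28-fold fall (log2 fold change -0.35 ± 0.03, adjusted p = 0.000436, edgeR). SMAD4, the shared partner, had 14.3, 15.5 and 15.3 CPM in siSTAT3+Vector, against 22.6, 19.7 and 24.3 CPM in Ctrl+Vector (1.48-fold lower, log2 fold change -0.56 ± 0.10, adjusted p = 0.00674, edgeR). The inhibitor SMAD7 had 15, 14.2 and 12.9 CPM in siSTAT3+Vector, against 5.75, 6.25 and 7.96 CPM in Ctrl+Vector (2.11-fold higher, log2 fold change 1.08 ± 0.17, adjusted p = 0.00474, edgeR). None of these 3 overlapped between the groups; 6 of the 10 members did not, where 36.3% of all transcripts did not. SMAD2 averaged 15.8 ± 0.334 CPM in siSTAT3+Vector and 15.9 ± 1.96 CPM in Ctrl+Vector (SD, n = 3 each), with overlap (adjusted p = 0.985, edgeR). TGFBR2, SMAD3, SMAD4 and SMAD7 passed the test in each of 13 alternatives.

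**Figure D2:**
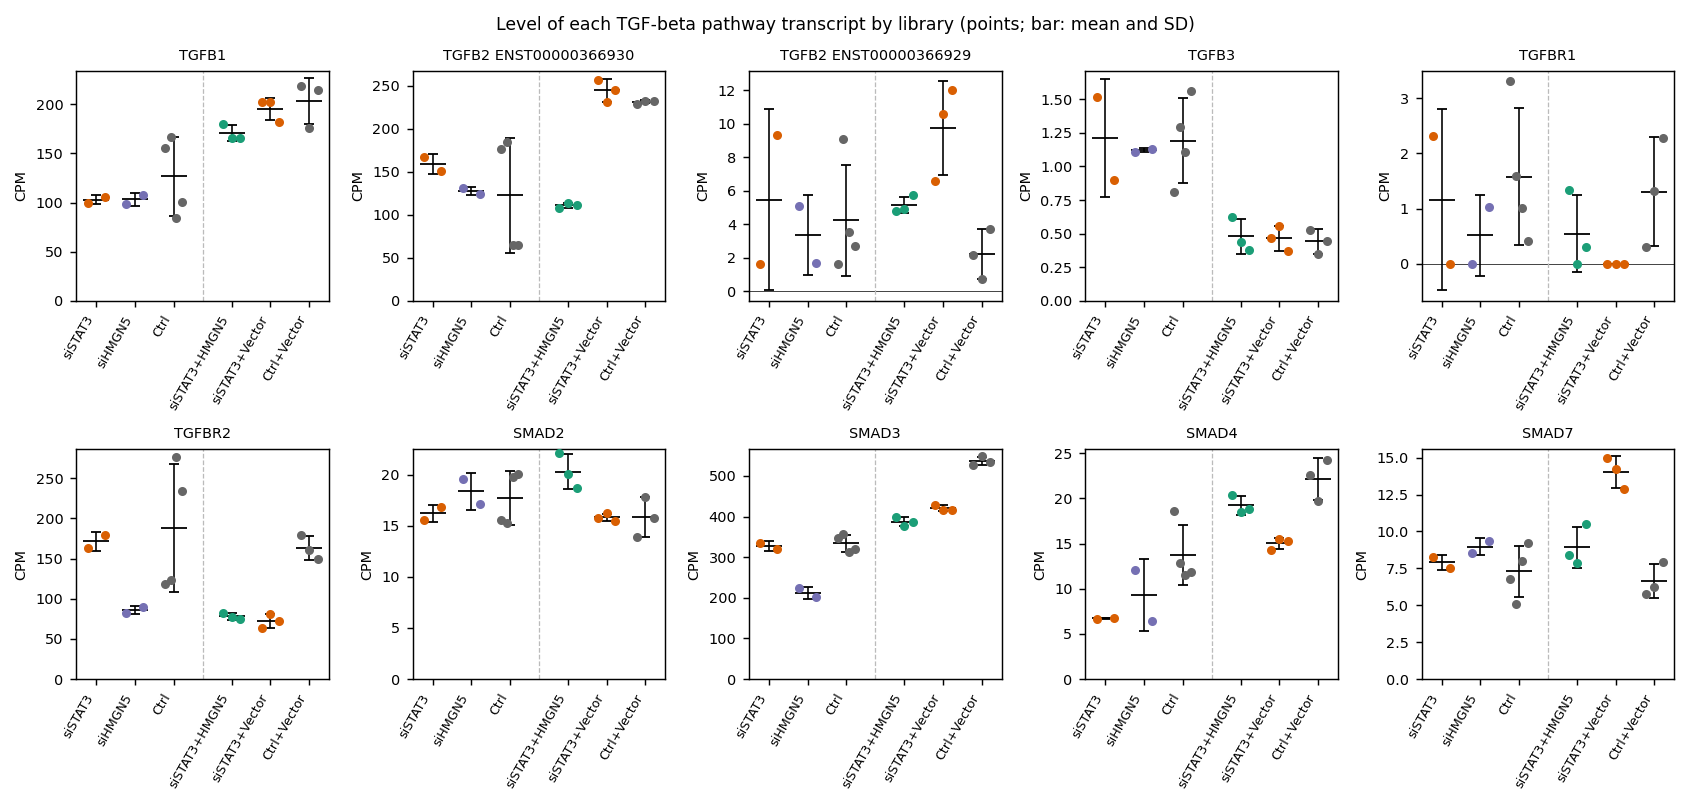
Level of each of the 10 transcripts in CPM, by group, with 1 point per library and a bar and whiskers for the mean and SD; a dashed line parts the siRNA experiment (left) from the lentiviral one (right). TGFBR2 and SMAD3 are lower and SMAD7 higher in siSTAT3+Vector than in Ctrl+Vector, TGFB2 ENST00000366930 is lowest of the lentiviral groups in siSTAT3+HMGN5, and the 4 Ctrl points of TGFB1, TGFB2 ENST00000366930 and TGFBR2 split into pairs.

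In cells with STAT3 siRNA, the main TGFB2 transcript was lower with lentiviral HMGN5 than with the control vector. No other member passed the test. TGFB2 ENST00000366930 had 108, 114 and 111 CPM in siSTAT3+HMGN5, against 257, 231 and 245 CPM in siSTAT3+Vector. All 3 libraries with HMGN5 lay below all 3 without it. The fall was 2.2-fold (log2 fold change -1.14 ± 0.05, adjusted p = 0.000329, edgeR). Summed over both TGFB2 transcripts it was 2.18-fold (adjusted p = 0.000294, edgeR), at 113, 119 and 117 CPM in siSTAT3+HMGN5, against 264, 242 and 257 CPM in siSTAT3+Vector. Of all transcripts 3.77% passed this test, 1.52% higher and 2.25% lower, and 12.4% of those averaging 10 CPM or more, against 1 of 6 members. Its Ctrl+Vector libraries had 229, 232 and 232 CPM.

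For the other members the test was not passed, and their libraries often lay apart. Counting the called TGFB2 transcript, the groups did not overlap for 7 of the 10 members, 2 above and 5 below. Of all transcripts, 25.4% did not overlap. SMAD7 had 8.39, 7.86 and 10.5 CPM in siSTAT3+HMGN5, against 15, 14.2 and 12.9 CPM in siSTAT3+Vector (log2 fold change -0.66 ± 0.17, adjusted p = 0.0878, edgeR). SMAD4 had 20.4, 18.5 and 18.8 CPM in siSTAT3+HMGN5, against 14.3, 15.5 and 15.3 CPM in siSTAT3+Vector (log2 fold change 0.35 ± 0.09, adjusted p = 0.104, edgeR). These values of SMAD7 and SMAD4 lay between those of siSTAT3+Vector and the Ctrl+Vector means of 6.65 and 22.2 CPM.

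SMAD2 averaged 20.3 ± 1.68 CPM in siSTAT3+HMGN5 and 15.8 ± 0.334 CPM in siSTAT3+Vector (adjusted p = 0.143, edgeR). SMAD3 averaged 388 ± 11.2 CPM in siSTAT3+HMGN5 and 421 ± 7.67 CPM in siSTAT3+Vector (SD, n = 3 each; adjusted p = 0.124, edgeR). DESeq2 called 6 members, adding SMAD7 (adjusted p = 0.00164), SMAD4 (0.00575), SMAD2 (0.0118), SMAD3 (0.00286) and TGFBR1 (0.0316). It also called more of all transcripts, 8078 against 2631 with edgeR. Over all 13 alternatives the adjusted p of SMAD7 ranged up to 0.249, that of SMAD4 to 0.282, that of SMAD2 to 0.338 and that of SMAD3 to 0.318, and over 12 that of TGFBR1 to 0.486.

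TGFBR2, low in siSTAT3+Vector, was also low with HMGN5. It had 82.3, 77 and 74.8 CPM in siSTAT3+HMGN5, against 64, 81.1 and 71.8 CPM in siSTAT3+Vector (log2 fold change 0.11 ± 0.10, adjusted p = 0.742, edgeR), and the groups overlapped. TGFB1 averaged 171 ± 8.15 CPM in siSTAT3+HMGN5 and 195 ± 11.7 CPM in siSTAT3+Vector (SD, n = 3 each; adjusted p = 0.37, edgeR). TGFB2 ENST00000366929 had 4.79, 4.9 and 5.71 CPM in siSTAT3+HMGN5, against 6.58, 10.6 and 12 CPM in siSTAT3+Vector, without overlap (log2 fold change -0.92 ± 0.52, adjusted p = 0.474, edgeR). TGFB3 averaged 0.48 CPM in siSTAT3+HMGN5 and 0.464 CPM in siSTAT3+Vector, and TGFBR1 had 1.33, 0 and 0.296 CPM in siSTAT3+HMGN5, against 0 in all siSTAT3+Vector libraries (adjusted p = 0.992 and 0.232, edgeR).

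Set against Ctrl+Vector, the siSTAT3+HMGN5 cells had 3 members called, all lower, where 22.3% of all transcripts were called, 10.9% higher and 11.4% lower. At 10 CPM or more, 3 of 6 members were called, against 51.2% of transcripts, and 5 of 10 members did not overlap, against 43% of transcripts. This comparison shares its libraries with the ones above. TGFB2 ENST00000366930 averaged 111 ± 3.08 CPM in siSTAT3+HMGN5 and 231 ± 2 CPM in Ctrl+Vector (2.08-fold lower, adjusted p = 7.92e-06, edgeR). TGFBR2 averaged 78 ± 3.82 CPM in siSTAT3+HMGN5 and 163 ± 14.5 CPM in Ctrl+Vector (2.09-fold lower, adjusted p = 0.00024, edgeR). SMAD3 averaged 388 ± 11.2 CPM in siSTAT3+HMGN5 and 537 ± 10.7 CPM in Ctrl+Vector (1.39-fold lower, adjusted p = 6.56e-05, edgeR). SMAD4 and SMAD7 did not pass this test, at log2 fold changes of -0.21 ± 0.09 (adjusted p = 0.17) and 0.42 ± 0.17 (adjusted p = 0.125, edgeR). TGFB1 and SMAD2 were called by DESeq2 (adjusted p = 0.0187 and 0.00827), with an effective length offset (0.0405 and 0.0459) and without Ctrl+Vector replicate 2 (0.0106 and 0.0324). Their adjusted p over 13 alternatives reached 0.248 and 0.169. TGFB2 ENST00000366929 averaged 5.13 CPM in siSTAT3+HMGN5 and 2.2 CPM in Ctrl+Vector, without overlap (adjusted p = 0.152, edgeR). TGFB3 averaged 0.48 CPM in siSTAT3+HMGN5 and 0.441 CPM in Ctrl+Vector, and TGFBR1 0.542 CPM in siSTAT3+HMGN5 and 1.3 CPM in Ctrl+Vector, both with overlap (adjusted p = 0.907 and 0.664, edgeR).

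In the siRNA experiment, STAT3 siRNA moved 0 of the 10 members by edgeR, where 4.28% of 74346 transcripts were called, 1.36% higher and 2.92% lower, and 14.1% of those averaging 10 CPM or more. DESeq2 called 1 member, SMAD4, and 10650 of all transcripts, where edgeR called 3181. SMAD4 had 6.7 and 6.78 CPM in siSTAT3, against 18.6, 12.8, 11.5 and 11.9 CPM in Ctrl. Both siSTAT3 libraries lay below all 4 Ctrl libraries, and 30.9% of all transcripts did not overlap in this comparison. The log2 fold change was -1.02 ± 0.33 (adjusted p = 0.171 with edgeR and 0.0169 with DESeq2, and 0.0169 to 0.519 over 15 alternatives). For SMAD4 it was -1.22 against Ctrl replicates 1 and 2 (adjusted p = 0.164) and -0.81 against replicates 3 and 4 (adjusted p = 0.246, edgeR). SMAD3, lowered in the vector cells, had 336 and 319 CPM in siSTAT3, against 348, 357, 313 and 321 CPM in Ctrl, with overlap (log2 fold change -0.03 ± 0.08, adjusted p = 0.932, edgeR). SMAD7 averaged 7.9 ± 0.511 CPM in siSTAT3 (SD, n = 2) and 7.29 ± 1.76 CPM in Ctrl (SD, n = 4), also with overlap. The remaining scarce members overlapped too: SMAD2 averaged 16.2 CPM in siSTAT3 and 17.7 CPM in Ctrl, TGFB2 ENST00000366929 5.46 CPM in siSTAT3 and 4.23 CPM in Ctrl, TGFB3 1.21 CPM in siSTAT3 and 1.19 CPM in Ctrl, and TGFBR1 1.16 CPM in siSTAT3 and 1.58 CPM in Ctrl (adjusted p of 0.811 to 0.991, edgeR).

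For TGFB1, TGFB2 and TGFBR2 the Ctrl pairs lay further apart than siSTAT3 lay from either. TGFBR2 had 163 and 180 CPM in siSTAT3, against 118 and 124 CPM in Ctrl replicates 1 and 2 and 276 and 234 CPM in Ctrl replicates 3 and 4. Its log2 fold change was -0.13 ± 0.37 with all Ctrl libraries (adjusted p = 0.93), 0.50 against replicates 1 and 2 (adjusted p = 0.0365) and -0.59 against replicates 3 and 4 (adjusted p = 0.0465, edgeR). Its direction therefore depended on the control pair. TGFB2 ENST00000366930 had 167 and 151 CPM in siSTAT3, against 176 and 185 CPM in Ctrl replicates 1 and 2 and 65.2 and 65 CPM in Ctrl replicates 3 and 4. The log2 fold change was -0.19 against the first pair (adjusted p = 0.236) and 1.27 against the second (adjusted p = 0.00466, edgeR). TGFB1 had 100 and 106 CPM in siSTAT3, against 155 and 167 CPM in Ctrl replicates 1 and 2 and 84.1 and 101 CPM in Ctrl replicates 3 and 4. It was lower against the first pair (log2 fold change -0.64, adjusted p = 0.0206) and not called against the second (0.14, adjusted p = 0.517, edgeR). Transcripts under 300 bases took 1.57% and 1.59% of reads in siSTAT3 and 1.56% and 1.7% in siHMGN5, against 1.15% to 1.26% in Ctrl, and the part of this in the results against Ctrl was not tested. With 1 pair of libraries per siRNA, a shift of a whole pair and the treatment cannot be told apart.

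HMGN5 siRNA lowered SMAD3, the 1 member of 10 called, where 3.39% of all transcripts were called, 0.943% higher and 2.45% lower. At 10 CPM or more it was 1 of 6 members, against 11.7% of transcripts. SMAD3 had 223 and 202 CPM in siHMGN5, against 348, 357, 313 and 321 CPM in Ctrl. Both siHMGN5 libraries lay below all Ctrl libraries of either pair. The fall was 1.58-fold (log2 fold change -0.66 ± 0.09, adjusted p = 0.0138, edgeR), and it was -0.73 against Ctrl replicates 1 and 2 (adjusted p = 0.0149) and -0.58 against replicates 3 and 4 (adjusted p = 0.016). Of 15 alternatives, 13 called it, and the highest adjusted p was 0.117. The call ended without siHMGN5 replicate 1 (log2 fold change -0.74, adjusted p = 0.0751) or replicate 2 (-0.60, adjusted p = 0.117), fits in which the 1 library left is taken to have the spread of the remaining groups.

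TGFBR2 had 82.5 and 89.8 CPM in siHMGN5, against 118, 124, 276 and 234 CPM in Ctrl, so both siHMGN5 libraries lay below every Ctrl library. Of all transcripts, 30.6% did not overlap here, and 2 of the members did not. With all Ctrl libraries its log2 fold change was -1.13 ± 0.39 (adjusted p = 0.213, edgeR). Against each pair alone it was called, at -0.49 for replicates 1 and 2 (adjusted p = 0.0452) and -1.57 for replicates 3 and 4 (adjusted p = 0.00697). DESeq2 called it with all Ctrl libraries (adjusted p = 0.0208), and over 15 alternatives the adjusted p ranged from 0.00697 to 0.594. TGFB2 ENST00000366930 had 131 and 124 CPM in siHMGN5, which lay between the Ctrl pairs and gave log2 fold changes of -0.51 (adjusted p = 0.0355) against replicates 1 and 2 and 0.97 (adjusted p = 0.00697, edgeR) against replicates 3 and 4. TGFB1 had 98.6 and 108 CPM in siHMGN5, with log2 fold changes of -0.64 (adjusted p = 0.0252) and 0.16 (adjusted p = 0.463, edgeR) against the same pairs.

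The other 6 members overlapped between siHMGN5 and Ctrl and were not called (adjusted p of 0.455 to 0.966, edgeR). SMAD4 had 12.1 and 6.48 CPM in siHMGN5, against 18.6, 12.8, 11.5 and 11.9 CPM in Ctrl. SMAD7 averaged 8.97 CPM in siHMGN5 and 7.29 CPM in Ctrl, and SMAD2 18.4 CPM in siHMGN5 and 17.7 CPM in Ctrl. TGFB2 ENST00000366929 averaged 3.37 CPM in siHMGN5 and 4.23 CPM in Ctrl, TGFB3 1.12 CPM in siHMGN5 and 1.19 CPM in Ctrl, and TGFBR1 0.517 CPM in siHMGN5 and 1.58 CPM in Ctrl.

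**Figure D3:**
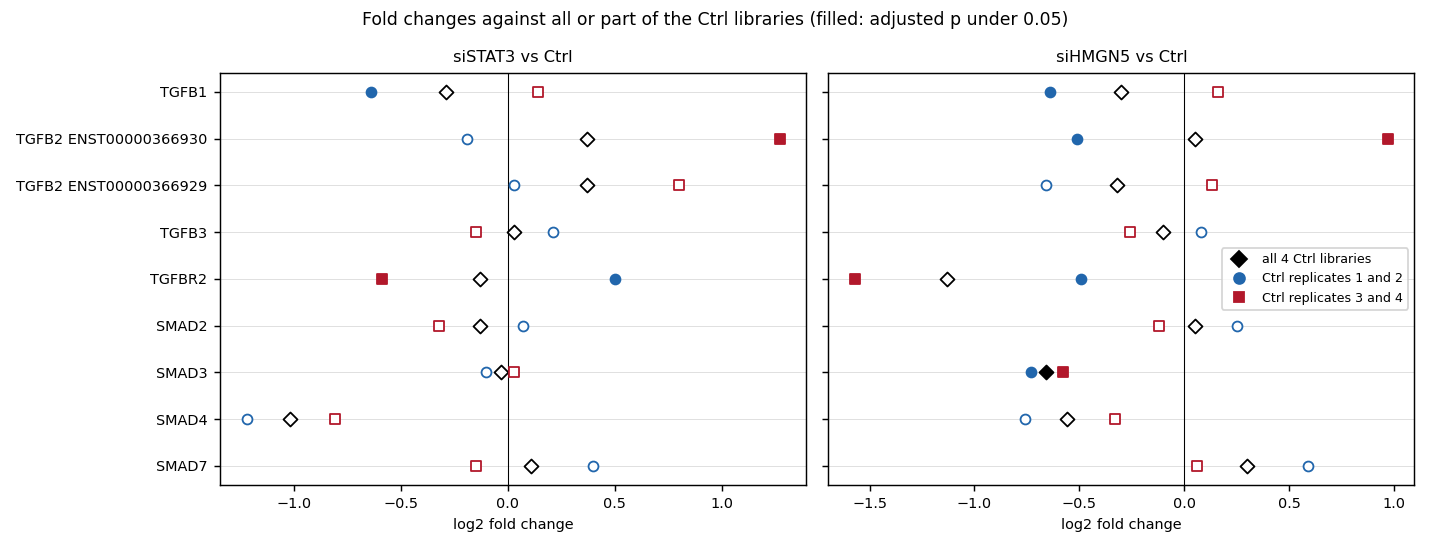
Log2 fold change of 9 transcripts (TGFBR1, at 0 in several libraries, is left out) in siSTAT3 and siHMGN5 against all 4 Ctrl libraries (black), Ctrl replicates 1 and 2 (blue) and Ctrl replicates 3 and 4 (red), filled where the adjusted p was under 0.05. SMAD3 in siHMGN5 lies between -0.73 and -0.58 with either pair, while between the pairs TGFB1, TGFB2 ENST00000366930, TGFB3 and SMAD2 have opposite signs in both treatments, TGFBR2, SMAD3 and SMAD7 in siSTAT3 and TGFB2 ENST00000366929 in siHMGN5.

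Compared directly, siSTAT3 and siHMGN5 cells differed in 1 of the 10 members, SMAD3, where 3.89% of all transcripts were called, 2.02% higher and 1.87% lower. At 10 CPM or more it was 1 of 6 members, against 12.7% of transcripts. In 5 of the 10 members the libraries did not overlap, against 53.5% of all transcripts. SMAD3 averaged 328 ± 12 CPM in siSTAT3 and 212 ± 15 CPM in siHMGN5 (SD, n = 2 each), a 1.54-fold difference (log2 fold change 0.63 ± 0.10, adjusted p = 0.0203, edgeR). This call does not use the Ctrl levels, although those libraries enter the estimate of the spread. It ended without any 1 of the 4 libraries compared: the adjusted p was 0.124 and 0.0918 without siSTAT3 replicate 1 and 2, and 0.0875 and 0.142 without siHMGN5 replicate 1 and 2. TGFBR2 averaged 172 ± 11.4 CPM in siSTAT3 and 86.2 ± 5.13 CPM in siHMGN5 without overlap (SD, n = 2 each), but at 1.99-fold it did not pass (adjusted p = 0.312, edgeR). With only these 2 groups in the fit it did (adjusted p = 0.0286, and 0.0155 to 0.63 over 11 alternatives). The other 8 were not called (adjusted p of 0.601 to 1, edgeR). TGFB2 ENST00000366930 was higher in both siSTAT3 libraries than in both siHMGN5 libraries, SMAD2 and SMAD7 were lower in both, and TGFB1, TGFB2 ENST00000366929, TGFB3, TGFBR1 and SMAD4 overlapped.

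The effect of STAT3 siRNA was then compared between the experiments in 1 fit of all 17 libraries, where 5.51% of 86839 transcripts differed, 2.23% higher and 3.28% lower, and 20.2% of those averaging 10 CPM or more. SMAD3 was the 1 member called. Its log2 fold change was -0.03 ± 0.08 in the siRNA experiment and -0.35 ± 0.03 in the vector cells, a difference of 0.30 ± 0.08 (adjusted p = 0.0393, edgeR). The single-experiment values come from separate fits, so they do not subtract exactly. The SMAD3 difference was 0.24 against Ctrl replicates 1 and 2 (adjusted p = 0.0514) and 0.37 against replicates 3 and 4 (adjusted p = 0.00256, edgeR). The call held in 6 of 19 alternatives. It ended in 10 of the 12 fits without 1 library, all but those without Ctrl replicate 1 or 2, with differences of 0.26 to 0.34 and adjusted p of up to 0.243 (without siSTAT3 replicate 1). The difference for TGFBR2 was 1.02 ± 0.38 (adjusted p = 0.173) and that for SMAD7 was -0.98 ± 0.31 (adjusted p = 0.0944, edgeR), so neither was shown to differ with all libraries. Without Ctrl replicate 3 TGFBR2 passed (1.27, adjusted p = 0.0398), as did SMAD7 without Ctrl replicate 2 (-1.12, adjusted p = 0.0245). Against Ctrl replicates 1 and 2 alone the difference for TGFBR2 was 1.66 (adjusted p = 4.86e-05), and against replicates 3 and 4 it was 0.58 (adjusted p = 0.0411), within a range of 4.86e-05 to 0.39 over 19 alternatives. The difference for SMAD7 was -0.69 (adjusted p = 0.202) and -1.23 (adjusted p = 0.00805) against the same pairs, within 0.00805 to 0.291 over 19 alternatives. With all libraries, the other 7 members, TGFB1, both TGFB2 transcripts, TGFB3, TGFBR1, SMAD2 and SMAD4, were not called (adjusted p of 0.241 to 1, edgeR). TGFB2 ENST00000366930 passed against Ctrl replicates 3 and 4 (1.18, adjusted p = 2.97e-06) and was at -0.28 against replicates 1 and 2 (adjusted p = 0.0585, edgeR). TGFB1 passed against replicates 1 and 2 (-0.60, adjusted p = 0.0213) and was at 0.19 against replicates 3 and 4 (adjusted p = 0.521, edgeR). Infection and experiment changed together and cannot be told apart.

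**Figure D4:**
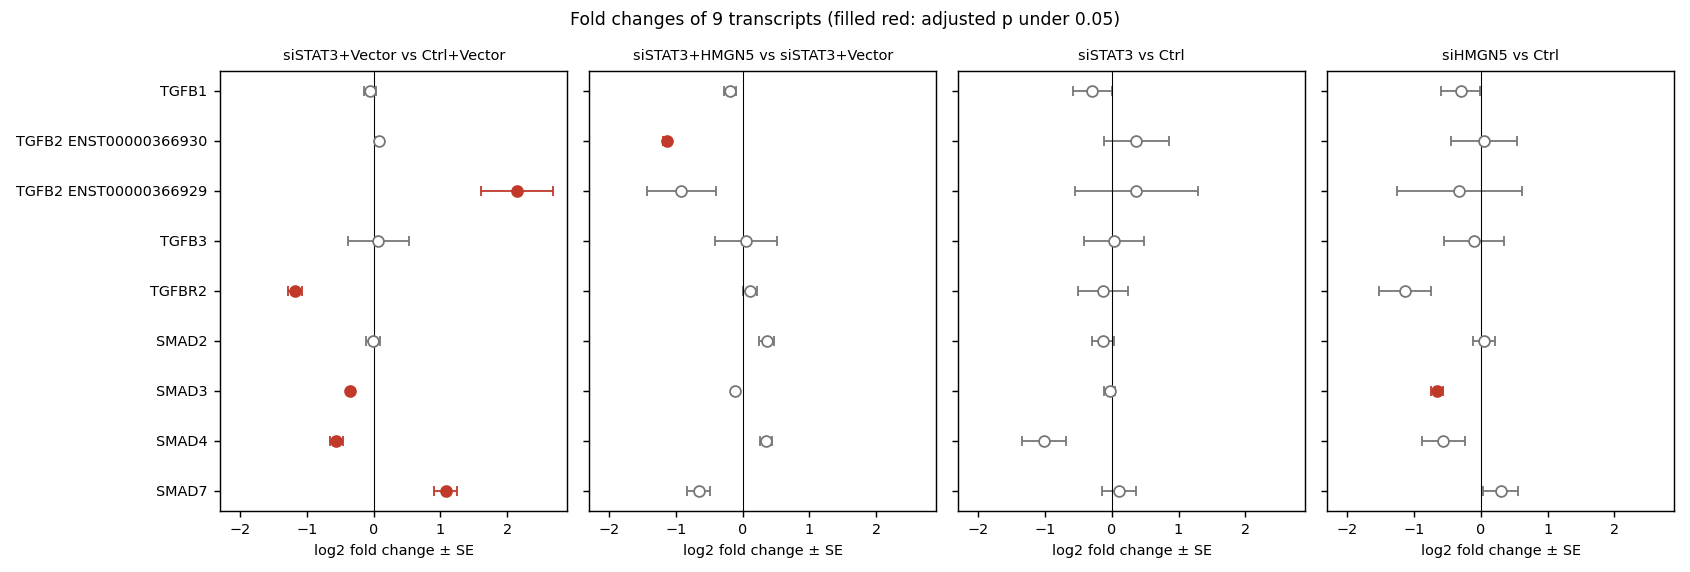
Log2 fold change with its SE for 9 transcripts (TGFBR1 is left out) in 4 comparisons, filled red where the adjusted p was under 0.05. In siSTAT3+Vector against Ctrl+Vector, TGFBR2, SMAD3 and SMAD4 are lower and SMAD7 and TGFB2 ENST00000366929 higher; in siSTAT3+HMGN5 against siSTAT3+Vector only TGFB2 ENST00000366930 is called, at -1.14; in siHMGN5 against Ctrl only SMAD3 is, at -0.66.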

How the data were processed

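Each library has 1 deposited table of Ensembl transcripts with length, effective length, TPM and reads. Salmon 1.4.0 is named, per the submitters' processing notes, beside CASAVA, Bowtie2, HOMER and the labels GRCh38 and hg38 for the build; for the transcript release and options, nothing was given in the sources used here. The deposited reads are estimated counts: reads that fit several transcripts are divided by a model, so transcripts of 1 gene can trade reads. The TPM values deposited by the authors are scaled by effective length to a fixed total per library and were not used in tests.

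The members and gene lists were chosen with earlier results of these data known. By rule, every member is named in each comparison. Lists of other pathway genes and of cell line markers had been planned, and since neither the files nor the tables at hand pair transcripts with symbols, they were not run. Histone H3K27ac profiles were not analysed here.

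Estimated counts were rounded. Each experiment was fitted apart, and the 17 libraries together for the difference between experiments, with edgeR 4.0.16 in R 4.3.3 (TMM, filterByExpr, glmQLFit, glmQLFTest, group means), with Benjamini-Hochberg adjustment over all transcripts tested and a threshold of 0.05. All 10 members passed the low-count filter in the reported fits; TGFBR1 did not where siSTAT3+Vector was fitted with only 1 other group. SE was taken as the size of the log2 fold change over the root of its F statistic; fold changes use edgeR's default prior count. DESeq2 1.42.0 was an alternative. The fits were tested on simulated counts. Promoter windows are RefSeq's (GRCh38.p14).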

Additional observations from a re-analysis of the deposited data

Results flagged for a closer look

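The effect of STAT3 siRNA on SMAD3 passed the test of a difference between the experiments, near the threshold. The difference of log2 fold changes was 0.30 ± 0.08 (interaction contrast, adjusted p = 0.0393, edgeR), with 336 and 319 CPM in siSTAT3 and 348, 357, 313 and 321 CPM in Ctrl, and 429, 416 and 416 CPM in siSTAT3+Vector and 528, 549 and 534 CPM in Ctrl+Vector. It is the 1 member of 10 that passed this test, where 5.51% of all transcripts did. At 10 CPM or more it was 1 of 6 members, against 20.2% of transcripts. The difference was 0.24 against Ctrl replicates 1 and 2 (adjusted p = 0.0514) and 0.37 against replicates 3 and 4 (adjusted p = 0.00256, edgeR). The call held in 6 of 19 alternatives and ended in 10 of the 12 fits without 1 library, with adjusted p of up to 0.243.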

How the results depend on the processing

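Of the member results, TGFBR2, SMAD3, SMAD4 and SMAD7 in siSTAT3+Vector against Ctrl+Vector, and TGFB2 ENST00000366930 in siSTAT3+HMGN5 against siSTAT3+Vector, passed in each of 13 alternatives. Where other values changed, the cause was not tested. In the siRNA experiment only Ctrl has replicates 3 and 4. Against Ctrl, the replicate block (a term per replicate number) therefore rests on Ctrl replicates 1 and 2. These 2 alternatives thus share their control libraries and do not count as separate evidence. In siSTAT3 against Ctrl (0 members called), DESeq2 called 1, and the replicate block, Ctrl replicates 1 and 2 alone and Ctrl replicates 3 and 4 alone called 2 each. Of all transcripts, 3181 were called in the reported fit, and 10650, 1622, 4627 and 6259 in these 4 settings. In siHMGN5 against Ctrl (1), the member counts were 2 with DESeq2, 3 with the replicate block, 4 with Ctrl replicates 1 and 2 and 3 with replicates 3 and 4. Of all transcripts, 2521 were called in the reported fit, and 9904, 902, 3429 and 6249 in these settings. In siSTAT3 against siHMGN5 (1), fitting only those groups or the replicate block gave 2 members. Of all transcripts, 2893 were called in the reported fit, and 3409 and 2418 in these settings. DESeq2 gave 6 members in siSTAT3+HMGN5 against siSTAT3+Vector (1), where it called 8078 of all transcripts and the reported fit 2631. It and the effective length offset each gave 5 members against Ctrl+Vector (3). There DESeq2 called 22871 of all transcripts, the offset 15686 and the reported fit 15579. For the difference between experiments, the reported fit called 4784 of all transcripts. It was 3659 without the low-count filter, 4888 with the length offset and 11074 with DESeq2. With Ctrl replicates 1 and 2 it was 5696, and with replicates 3 and 4 it was 9318. The member count there (1) was 0 without the filter, 0 with the length offset, 2 with DESeq2, 2 with Ctrl replicates 1 and 2 and 4 with replicates 3 and 4. Without 1 library at a time the counts were 0 to 0, 0 to 1, 0 to 0, 1 to 1, 3 to 5 and 0 to 2 in the same order, and 4 to 5 in siSTAT3+Vector against Ctrl+Vector (5). The same-numbered libraries were not paired in the reported fits. Their deviations from group means correlated at r = -0.0887 to 0.052. With so few libraries a group, such deviations cannot decide whether the libraries were paired.

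Signs turned in these log2 values. In siSTAT3 against Ctrl, TGFB2 ENST00000366930, TGFBR2 and SMAD2 were at -0.19, 0.50 and 0.07 with the replicate block and with Ctrl replicates 1 and 2; with replicates 3 and 4, TGFB1, TGFB3, TGFBR1, SMAD3 and SMAD7 were at 0.14, -0.15, 0.70, 0.03 and -0.15. In siHMGN5 against Ctrl, TGFB2 ENST00000366930 and TGFB3 were at -0.51 and 0.08 with the replicate block and with replicates 1 and 2, and TGFB2 ENST00000366929 at 0.10 with the block; with replicates 3 and 4, TGFB1, TGFB2 ENST00000366929 and SMAD2 were at 0.16, 0.13 and -0.12. TGFB2 ENST00000366929 was at -0.07 with the replicate block in siSTAT3 against siHMGN5, and SMAD2 at 0.01 with the length offset in siSTAT3+Vector against Ctrl+Vector. For the difference between experiments, TGFB2 ENST00000366930, TGFB3 and SMAD2 were at -0.28, 0.13 and 0.06 with replicates 1 and 2, and TGFB1 at 0.19 with replicates 3 and 4.

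Without 1 library at a time, uncalled values of these members changed sign within the ranges given. In siSTAT3 against Ctrl they were TGFB2 ENST00000366929 -1.36 to 1.13, TGFB3 -0.40 to 0.36, TGFBR1 -7.93 to 0.57, TGFBR2 -0.30 to 0.10 and SMAD7 -0.02 to 0.25. In siHMGN5 against Ctrl they were TGFB2 ENST00000366930 -0.17 to 0.32, TGFB2 ENST00000366929 -1.32 to 0.38, TGFB3 -0.25 to 0.06 and SMAD2 -0.05 to 0.14. In siSTAT3 against siHMGN5 they were TGFB2 ENST00000366929 -1.04 to 1.67, TGFB3 -0.30 to 0.46, TGFBR1 -6.32 to 7.48 and SMAD4 -0.85 to 0.05. In siSTAT3+Vector against Ctrl+Vector they were TGFB3 -0.09 to 0.24 and SMAD2 -0.09 to 0.08. In siSTAT3+HMGN5 against siSTAT3+Vector they were TGFB3 -0.17 to 0.21. In siSTAT3+HMGN5 against Ctrl+Vector they were TGFB3 -0.11 to 0.29. In the difference between experiments they were TGFB3 -0.50 to 0.27 and TGFBR1 -0.24 to 8.36. TGFB3 and TGFBR1 rest on 8 to 29.7 and 0 to 65.1 reads a library, and the part of depth in these changes was not tested.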
